A study of Mus musculus with 2 samples.

Results

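The 2 loci that encode mouse miR-218, Mir218-1 (ENSMUSG00000065603.1) and Mir218-2 (ENSMUSG00000065583.1), were taken by gene symbol from 1973 gene rows of microRNA-seq count tables. Both had a row in both tables. The tables describe small RNA under 30 nt from the midbrain of healthy B6NCrl mouse embryos at embryonic day 13.5, with male and female tissue pooled. The series has 1 group of 2 biological replicates, each with its own library and biosample but with the same donor record. No treatment, mutant, other tissue or other age was included, so the data give the level of miR-218 and its repeatability, and no contrast of conditions. Whether the pools share litters is not stated, so differences between the libraries may be partly technical.

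MicroRNAs are cut from hairpin precursors. The 2 arms of a hairpin, named 5p and 3p, can each give a mature RNA, which recognises target messages mainly through its seed, bases 2 to 8. Mouse miR-218 is known as a microRNA of motor neurons: the motor neuron factors Isl1 and Lhx3 drive it from within Slit genes, and mice need it for neuromuscular transmission. Slit2 and Slit3, its host genes, encode secreted guidance proteins that bind Robo receptors on growing axons. The midbrain contains motor neurons of the eye muscles, in the oculomotor nucleus, but is mostly made of other neurons and progenitors.

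Both hairpins are shown because what they share and where they differ sets which reads could be counted at a locus. Capitals mark the mature arms (RefSeq, GRCm38.p6, 5′ to 3′), which were found for both loci.
Mir218-1: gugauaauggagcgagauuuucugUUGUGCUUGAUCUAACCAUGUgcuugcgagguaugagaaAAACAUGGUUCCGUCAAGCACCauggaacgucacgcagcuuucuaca
Mir218-2: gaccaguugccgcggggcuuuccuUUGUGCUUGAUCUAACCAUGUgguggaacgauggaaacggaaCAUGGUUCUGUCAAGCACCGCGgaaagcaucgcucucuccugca

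The mature RNAs follow, with the seed in capitals. The 5p arm is the same in both loci, and the 3p arms have different seeds because their annotated starts lie 3 nt apart.
miR-218-5p: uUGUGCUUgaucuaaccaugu
miR-218-1-3p: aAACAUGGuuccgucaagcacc
miR-218-2-3p: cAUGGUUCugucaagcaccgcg

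Each hairpin is 110 nt long. In a gapped global alignment they matched in 83 of 117 columns, or 70.9%. Mir218-1 had a GC content of 45.5% and Mir218-2 of 54.5%, and the predicted minimum free energies were -36.6 and -42.3 kcal/mol. The likeness was concentrated in the arms. The longest exact run common to the hairpins was 22 nt, from position 25 to 46 of each, and held the whole 21 nt of miR-218-5p plus the next base. The next longest runs were 10 nt each, at positions 65 to 74 and 76 to 85 of both hairpins. They lie within the 3p arm of Mir218-1 (64 to 85), while the 3p arm of Mir218-2 (67 to 88) starts inside the first of them and ends beyond the second. Laid over the Mir218-2 hairpin, miR-218-1-3p matched at 20 of 22 positions, with the substitutions A1G and C12U, counted from the 5′ end of miR-218-1-3p with its own base first.

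**Figure D1:**
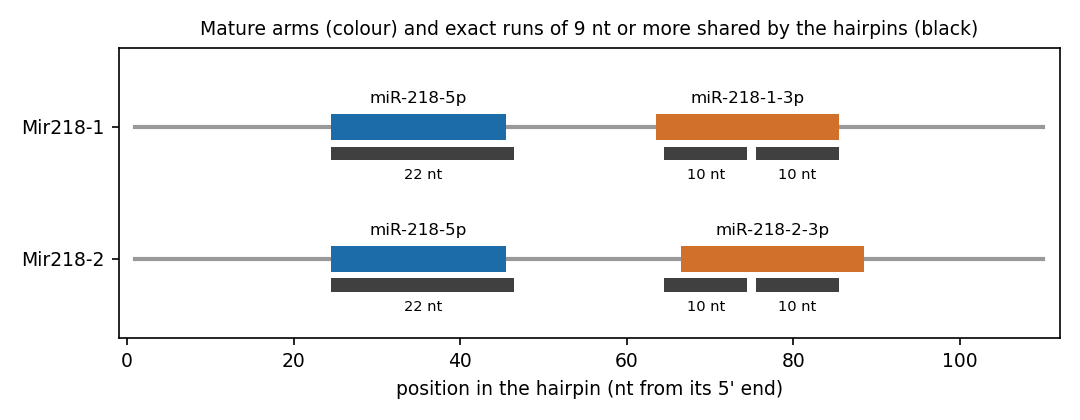
The 2 hairpins are drawn to scale by position from their 5′ ends in nt, with the 5p arm in blue, the 3p arm in orange and exact runs of 9 nt or more shared by the hairpins in black. The 22 nt run covers the whole 5p arm, while on the 3p side the hairpins share 2 runs of 10 nt, which the annotated 3p arm of Mir218-2 covers only in part.

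Reads that mapped to several places are listed in a summary row of each table and are in no locus count. Among 2202 annotated microRNA hairpins (GENCODE M21), miR-218-5p occurred in 2, these loci, whereas miR-218-1-3p and miR-218-2-3p each occurred in 1. A stretch of 18 nt was shared with another hairpin at 5 of 93 positions of each locus, a stretch of 22 nt at 1 of 89, and a stretch of 23 nt at 0 of 88, and every shared stretch lay within positions 25 to 46. Among these hairpins, a perfectly matching read of the annotated 5p arm therefore has no single locus. Perfectly matching reads of either annotated 3p arm, or 5p reads that reach beyond the common run, have a single hairpin. The genome outside the hairpins was not searched. The counts below are not the level of mature miR-218-5p, and they do not tell which arm was read. Multimapping reads were 34.4% of the reads in the table of replicate 1 and 37.7% in replicate 2, and the tables do not say how many of them were miR-218-5p.

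Both loci lie in introns of Slit genes, on the strand of the host (mm10). Mir218-1 lies on chromosome 5 from 48223942 to 48224051, plus strand, in Slit2. In the transcript Slit2-202, which has 38 exons, this is intron 16 of 3662 nt, and the hairpin ends 601 nt before the next exon. In Slit2-208 the same place is intron 14. Mir218-2 lies on chromosome 11 from 35616816 to 35616925, plus strand, in intron 14 of Slit3-201, which has 36 exons. That intron is 9571 nt long and the hairpin ends 5082 nt before its end. No other gene row lies within Slit2 or Slit3, and 0 rows lie within Slit1, the third Slit gene. Messenger RNA of the hosts is not in small RNA counts, and Slit expression was not analysed here.

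Mir218-1, the Slit2 locus, was counted at a low level in both libraries. It had 111 same-strand counts in replicate 1 and 58 in replicate 2. Scaled by the same-strand total of all gene rows to 1000000 (CPM), these were 21.8 CPM (exact 95% Poisson interval 17.9 to 26.2) and 19.8 CPM (15.0 to 25.5). The intervals overlapped, and the mean was 20.8 ± 1.44 CPM (SD, n = 2), or 11.5 CPM with multimapping reads in the denominator. The intervals cover counting error only, as the tables hold no molecular identifiers.

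Mir218-2, the Slit3 locus, stood higher in both libraries. It had 208 counts in replicate 1 and 138 in replicate 2, or 40.8 CPM (35.5 to 46.8) and 47.0 CPM (39.5 to 55.5), with a mean of 43.9 ± 4.36 CPM (SD, n = 2), or 24.1 CPM with multimapping reads in the denominator. The lowest bound of Mir218-2 lay above the highest bound of Mir218-1 in each library. Together the loci held 62.6 CPM (55.9 to 69.9) in replicate 1 and 66.8 CPM (57.7 to 76.8) in replicate 2, which is 1 read in 15968 and 1 in 14979. Opposite-strand counts were 0 at both loci in both libraries, which allows up to 0.589 CPM in replicate 1 and 1.02 CPM in replicate 2 (3 counts). Since the tissue is a bulk sample, few cells with much miR-218 and many cells with little cannot be told apart.

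**Figure D2:**
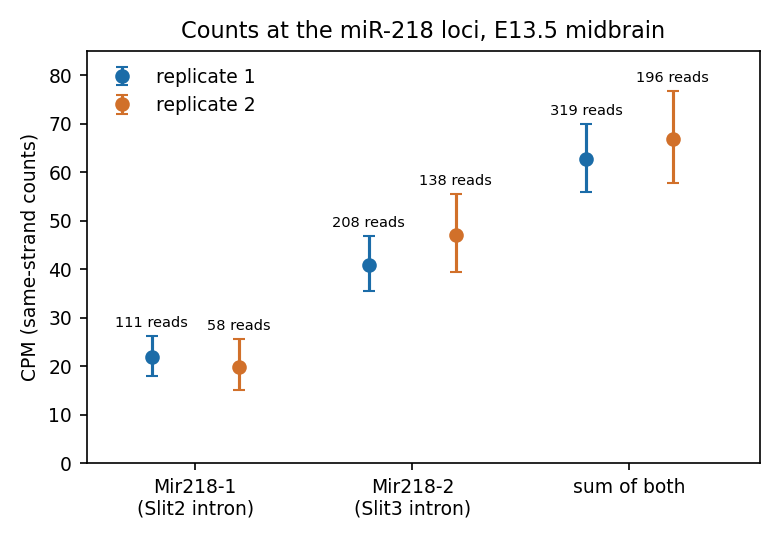
Same-strand CPM of Mir218-1, Mir218-2 and their sum is plotted for replicate 1 (blue) and replicate 2 (orange), with exact 95% Poisson intervals as bars and read counts as labels. Mir218-2 lies at 40.8 and 47.0 CPM, above Mir218-1 at 21.8 and 19.8 CPM.

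The Slit3 locus gave about 2 reads for each read of the Slit2 locus. The ratio of Mir218-2 to Mir218-1 counts was 1.87 (1.48 to 2.38) in replicate 1 and 2.38 (1.74 to 3.29) in replicate 2, and it is the same per nucleotide of hairpin because the hairpins have equal length. Mir218-1 took 34.8% (95% exact Clopper-Pearson interval 29.6 to 40.3) of the 319 counts of both loci in replicate 1 and 29.6% (23.3 to 36.5) of the 196 counts in replicate 2. An even split was tested by a two-sided exact binomial test on the reads, with p = 6.11e-08 and 1.06e-08, which takes in counting error and no spread between embryos. The share did not differ past the threshold between the libraries (two-sided Fisher's exact test, p = 0.246, odds ratio 1.27 with an interval of 0.851 to 1.90). A difference in the split within that interval cannot be seen at this depth. Reads that map to both loci enter neither count, so this is a ratio of locus-specific reads and not of hairpin output.

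Neither locus was called between the libraries. The libraries were compared at the 466 rows with at least 10 counts. For each row the counts of both libraries were set against their TMM-scaled sizes in an exact binomial test, two-sided, and p-values were adjusted over all 466 by the Benjamini-Hochberg method. Of these rows 38.0% were called at an adjusted p under 0.05. Those with more in replicate 1 made up 18.7% of the rows and those with more in replicate 2 made up 19.3%. Replicate 1 was the higher in 49.2% of the calls, and in 61.9% with total counts in place of TMM. The log2 ratio of replicate 1 to replicate 2 was 0.07 for Mir218-1 (interval -0.40 to 0.56, adjusted p = 0.918) and -0.27 for Mir218-2 (interval -0.59 to 0.05, adjusted p = 0.190). The test compares 2 libraries and not conditions, and with 58 to 208 counts it leaves a wide interval, so the miss does not show equal levels. Among rows within 2-fold of the level of Mir218-1, 11 of 61 were called, and among those within 2-fold of Mir218-2, 21 of 66. Their log2 ratios ran from -0.90 to 1.03 (SD 0.39) and from -0.90 to 0.83 (SD 0.36), and both miR-218 loci lay within 1 SD of 0.

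**Figure D3:**
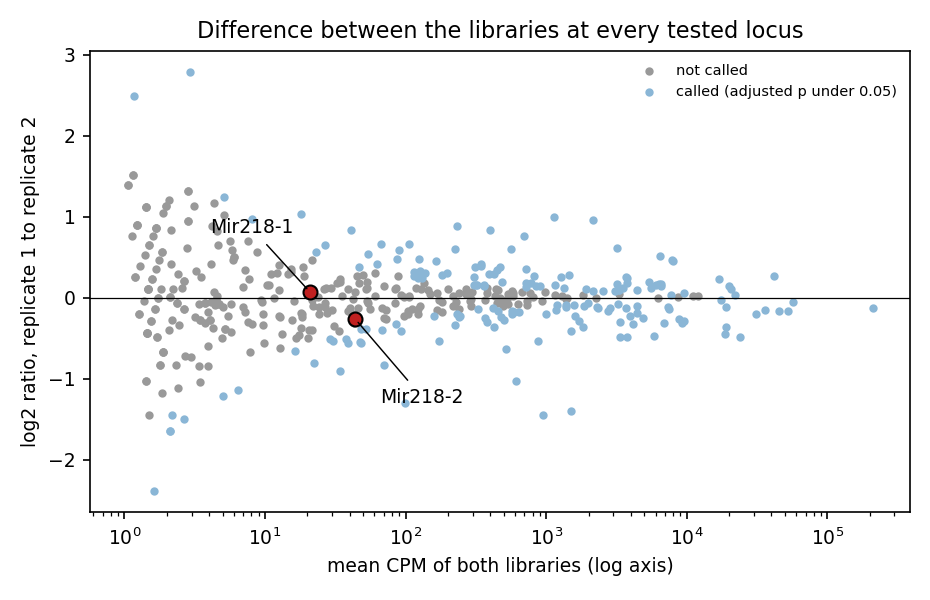
The log2 ratio of replicate 1 to replicate 2 is plotted against mean CPM (log axis) for the 466 tested rows, with called rows in light blue, the others in grey and the miR-218 loci in red. Mir218-1 at 0.07 and Mir218-2 at -0.27 lie within the band of rows of like level.

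Among all 1973 rows, Mir218-2 ranked 245th and Mir218-1 283rd by mean CPM, since most rows had few or no counts. Among the 466 tested rows, whose median was 53.0 CPM, 47.4% lay below Mir218-2 and 39.3% below Mir218-1. By library, Mir218-1 ranked 281st and 284th and Mir218-2 ranked 247th and 239th. Per nucleotide of hairpin the ranks were 257th and 298th of 1894 rows with a known length. Of the 193 tested rows in an intron of a protein-coding gene on the same strand, 57.5% lay below Mir218-2 and 48.7% below Mir218-1. Of the 40 tested rows with, like the miR-218 loci, some arms in 1 hairpin alone and some in several, 37.5% lay below Mir218-2 and 27.5% below Mir218-1. The median was 22.2 CPM for the intronic rows and 152 CPM for these rows with a mixed pair of arms.

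The rows nearest to each locus were found by distance over log2(CPM + 0.5) in the 2 libraries, which with 2 samples measures likeness of level and no pattern. For Mir218-1 these were Mir196b (distance 0.12), Mir193b (0.13), Mir1249 (0.16), Mir5113 (0.24) and Mir1968 (0.27). Mir196b, from a Hox cluster, had 112 and 63 counts. For Mir218-2 they were Mir129-1 (0.06), Mir3102 (0.08), Mir450b (0.14), Mir24-2 (0.19) and Mir452 (0.20). Mir129-1, a neuronal microRNA locus that also shares its 5p arm with another hairpin, had 200 and 137 counts.

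The other loci kept from a search for arms with a miR-218 seed had no counts. The seed of miR-218-5p is also that of miR-7002-3p, from chromosome 2, and the seed of miR-218-1-3p is also that of miR-496b, from chromosome 19. No other arm that was kept had the seed of miR-218-2-3p. All listed arms were searched, but matches were not kept from every chromosome, so further listed arms may have these seeds. The arms kept are printed to show how little beyond the seed they have in common with miR-218.
miR-7002-3p: uUGUGCUUccccuugccag
miR-496b: cAACAUGGccaauuccuuucau

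From the 5′ end, miR-7002-3p matched miR-218-5p at 13 of 19 positions and miR-496b matched miR-218-1-3p at 9 of 22. Mir7002 and Mir496b had 0 counts in both libraries, which allows up to 0.589 CPM in replicate 1 and 1.02 CPM in replicate 2.

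Among the listed neural microRNA families made from several hairpins, miR-218 had the second lowest summed count, per 100 nt of hairpin as well as in CPM. The locus counts of miR-124, of postmitotic neurons, summed to 13.3 ± 0.0464 CPM (SD, n = 2), or 0.234 times miR-218 per nucleotide. All the other families stood above miR-218. miR-129 summed to 129 ± 2.58 CPM, 2.62 times miR-218 per nucleotide, and miR-9, of neural progenitors, to 379 ± 33.4 CPM, 7.17 times. miR-138, known from dendritic spines, summed to 634 ± 277 CPM, or 12.5 times. miR-7a, at 885 ± 218 CPM, stood at 14.5 times per nucleotide and 13.7 times in CPM. miR-128, a neuronal microRNA that dampens excitability, had 896 ± 35.8 CPM, 21.1 times per nucleotide and 13.9 times in CPM. The 2 families were thus near each other in CPM, and their gap per nucleotide comes from the annotated hairpin lengths. miR-219a, of oligodendrocyte differentiation, led with 2434 ± 171 CPM, 41.2 times miR-218. All these sums leave out reads of arms with several copies, and the families differ in that. For miR-218, miR-128, miR-138 and miR-7a, 2 of 4 listed arms occur in 1 hairpin alone, for miR-129 and miR-219a 1 of 3, and for miR-9 0 of 6. The order is therefore one of counted reads, not of mature microRNA. Reads under 30 nt cover only part of a hairpin, so the factors per nucleotide also depend on the annotated hairpin length.

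Pairs of loci in the other families were also counted unequally. The higher locus exceeded the lower by 2.11 times for miR-218, per nucleotide. The factor was 1.59 for miR-128, 1.62 for miR-129, 1.23 for miR-138, 1.56 for miR-7a and 2.65 for miR-219a, so miR-218 lay within their range. Between the libraries, both Mir138 loci were called, at 523 and 279 CPM for Mir138-1 (log2 ratio 0.84, adjusted p = 3.04e-51 by the binomial test). Mir7-1, Mir7-2, Mir128-2 and Mir219a-2 were called as well, while neither miR-218 locus was. Of all tested rows 38.0% were called, and 52.6% with a minimum of 50 counts. The Mir138 loci had 467 to 2662 counts per library, more than the miR-218 loci, and the difference between the families was not tested.

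**Figure D4:**
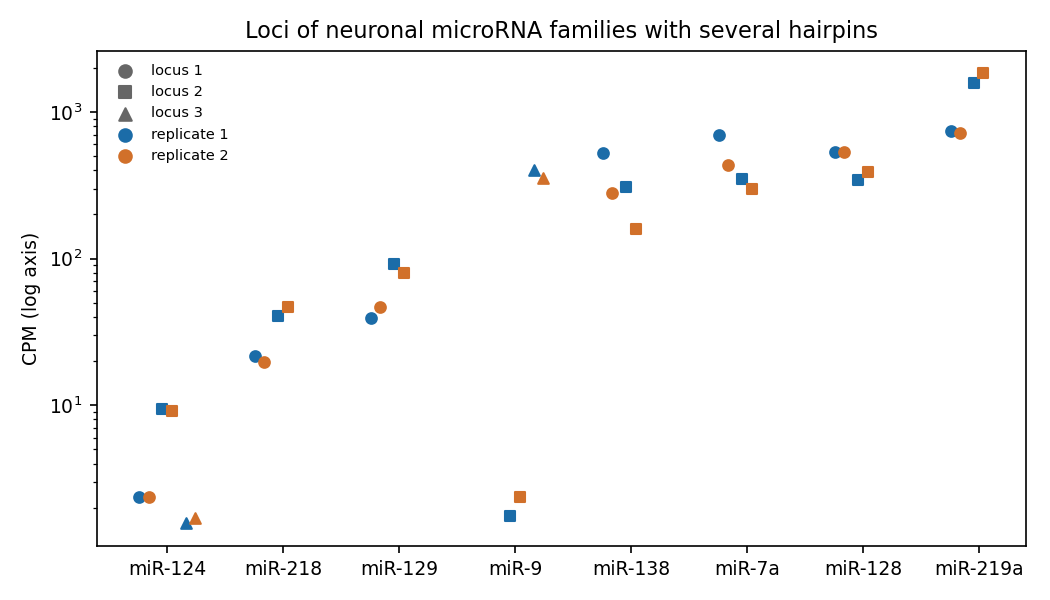
CPM (log axis) of each locus of 8 neural families with several hairpins is plotted, ordered by summed CPM, with the locus number as marker shape and the libraries in blue and orange. The miR-218 loci, from 19.8 to 47.0 CPM, lie above the miR-124 loci and overlap the lower miR-129 locus.

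The loci listed as lying in introns of other neural genes were counted at or above the level of the Slit3 locus. The hosts and their neural label come from the list, and whether each host is particular to neural cells was not tested. All 11 exceeded Mir218-2 in mean CPM and per nucleotide, from Mir326 in Arrb1 (46.2 ± 5.67 CPM), within the SD of Mir218-2, to Mir149 in Gpc1 (18860 ± 507 CPM). Their median was 364 CPM, against 53.0 over all tested rows, and 10 of 11 reached 100 CPM in both libraries. Mir153, in the neuroendocrine gene Ptprn2, had 3779 and 3311 CPM. Mir488, in the neuronal migration gene Astn1, had 163 and 173 CPM. Between the libraries 7 of the 11 were called, 4 with more in replicate 1 and 3 with more in replicate 2. Of all tested rows 38.0% were called, and 52.6% with a minimum of 50 counts.

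The listed neural loci with several copies had 15 rows for 16 names, Mir9-1 having none. Of these 11 exceeded Mir218-2 per nucleotide and the other 4, Mir9-2 and the 3 Mir124a loci, lay below Mir218-1. The median was 323 CPM, and 9 reached 100 CPM in both libraries. Between the libraries 6 of 15 were called, 4 with more in replicate 1 and 2 with more in replicate 2, near the 38.0% of all tested rows.

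Loci known from brain tissue were also set beside miR-218. Their list was chosen with earlier results of these data known, so it does not test the tissue label. Of 10 brain loci with a row, 6 reached 100 CPM in both libraries, against 202 of the 466 tested rows. All 10 had counts in both libraries. Mir135b, of the miR-135 family, had 11427 and 10751 CPM, and Mir137, of developing neurons, 9265 and 6397 CPM. Mir9-2 and the 3 Mir124a loci were under 10 CPM. The arms of Mir9-2 occur in 3 hairpins each, but so do those of Mir9-3, which had 401 and 353 CPM. The 10 loci had a median of 362 CPM, and 3 of 10 were called, 2 with more in replicate 1 and 1 with more in replicate 2, near the 38.0% of all tested rows.

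Motor neurons are abundant in hindbrain and spinal cord, so microRNAs of the Hox clusters, which pattern those regions, were set beside miR-218. Their summed level was 637 CPM in replicate 1 and 723 CPM in replicate 2, and all 6 had counts in at least 1 library. Mir10a had 382 and 469 CPM and Mir10b 215 and 220 CPM, both above the miR-218 loci, also per nucleotide. Mir196b had 22.0 and 21.5 CPM and Mir615 17.5 and 12.9 CPM, near Mir218-1, and per 100 nt 25.6 and 16.5 CPM against 18.9 CPM. Mir196a-1 had 1 and 0 counts. The median of the list was 18.5 CPM. Mir10a was called, higher in replicate 2 by 0.36 on the log2 scale (adjusted p = 1.15e-11), and the other 3 tested loci were not, against 38.0% of all tested rows called. Mir218-2 was higher in CPM in replicate 2 and Mir218-1 in replicate 1, as were Mir196b and Mir615, none of them past the test. With TMM scaling the log2 ratio of Mir196b was -0.03, so its direction depended on the scaling. The part of Hox-expressing tissue in the miR-218 counts was not tested.

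Slit genes and miR-218 are also known from blood vessels. The loci listed as endothelial and mural summed to 25223 CPM in replicate 1 and 31993 CPM in replicate 2. The sum takes in Mir140, at 3582 and 3752 CPM, and whether the listed loci were read from vascular cells was not tested. Mir126a, of endothelial cells, had 16256 and 21170 CPM, and Mir143, of smooth muscle and pericytes, 4991 and 6626 CPM. All 8 loci with a row had counts in both libraries, with a median of 173 CPM. Of 7 tested loci 5 were called, all with more in replicate 2, against 19.3% of all tested rows called in that direction. The part of vascular cells in the miR-218 counts was not tested.

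Muscle loci were set beside miR-218 because motor axons end on muscle. The list summed to 60.9 CPM in replicate 1 and 62.0 CPM in replicate 2. Mir1a-1, Mir133a-1 and Mir133a-2, which define skeletal and heart muscle, had 0 counts in both libraries. Each shares a run of 28 or 31 nt with another annotated hairpin, so reads of that run are in no locus count and the 0 does not show that these microRNAs were absent. Mir206, of skeletal muscle, whose longest shared run is 13 nt, had 14.7 and 10.6 CPM. Mir208b, at 39.3 and 40.9 CPM, was the highest, with a mean a little below that of Mir218-2 (40.1 against 43.9 CPM). Per 100 nt of hairpin it stood above Mir218-2 (52.0 against 39.9 CPM) only because its annotated hairpin is shorter, 77 against 110 nt. The median of 8 loci was 1.78 CPM, and by the binomial test 0 of 4 tested loci were called, with TMM or with DESeq2 size factors, and 0 of 4 had an unadjusted p under 0.05. Of all tested rows 38.0% and 38.6% were called with these scalings, and so few loci allow no reading against that share.

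**Figure D5:**
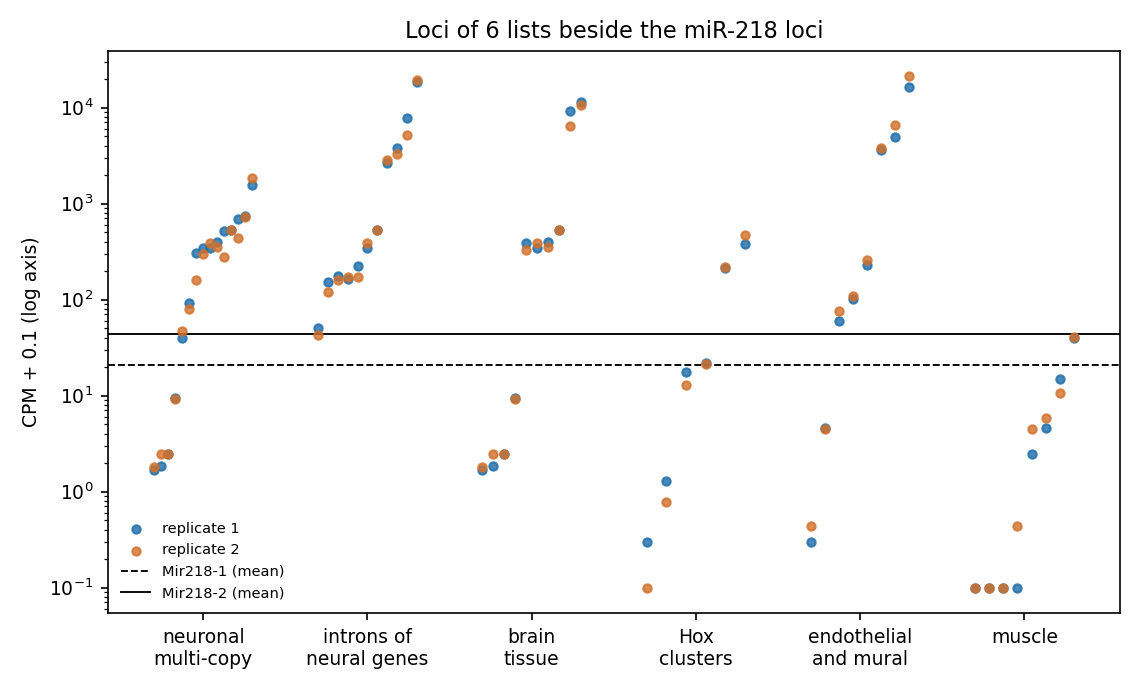
CPM plus 0.1 (log axis) is plotted for every locus of the 6 lists in replicate 1 (blue) and replicate 2 (orange), with the mean of Mir218-1 as a dashed line and of Mir218-2 as a solid line. The means of the loci in introns of neural genes lie above the solid line, and the muscle loci lie below it.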

How the data were processed

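The deposited tables hold raw read counts per gene, with mm10 as the assembly and M4 as the annotation, per the file headers. No source used here states the aligner, trimming or counting settings. Of 3 unlabelled count columns, the first equalled the sum of the others in 3946 of 3946 rows, and the columns were read as unstranded, same-strand and opposite-strand. This is an inference.

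CPM was computed from same-strand counts, 5093743 in replicate 1 and 2935841 in replicate 2, without the summary rows. The deeper library has the narrower intervals. Of 1973 IDs, 1894 matched GENCODE M21. TMM factors came from edgeR 4.0.16, size factors from DESeq2 1.42.0 (an alternative), tests from scipy 1.17.1 and folding from ViennaRNA 2.7.2. With 1 group no edgeR contrast could be fitted. The binomial test was tested on simulated data. Log2 ratios use a pseudocount of 0.5 CPM. Copies of arms were sought in annotated hairpins, not in the genome, with arms from RefSeq, whose table gave none for miR-124.

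The loci and the 6 lists were chosen with earlier results of these data known. Named loci were the members, the lists, the loci kept from the seed search and the 5 nearest rows. Alternatives varied scaling, filter, strand, depth, pseudocount, denominator, hairpin length and replicates.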

Additional observations from a re-analysis of the deposited data

How the results depend on the processing

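No paired analysis was possible because the series has 1 group. Of 51 alternative values, 46 were labelled the same, 5 moved and 0 reversed. The same meant a kept direction and side of the threshold, a shift within the replicate SD, or a like number of rows. Several of the 46 could not have moved. Leaving out a replicate cannot shift a mean or share beyond the SD. Equal hairpin lengths and the lack of opposite-strand counts also fix the share. With multimapping reads in the denominator, the mean of Mir218-1 was 11.5 CPM and of Mir218-2 24.1 CPM. With unstranded counts the ranks were 294 and 256. Over 7 settings the log2 ratio ran from 0.07 to 0.14 for Mir218-1 (adjusted p from 0.732 to 1.00) and from -0.27 to -0.20 for Mir218-2 (0.148 to 0.334), and the called rows from 160 to 183 (main 177). With each replicate left out, Mir218-1 stood at 19.8 to 21.8 CPM (rank 281 to 284), Mir218-2 at 40.8 to 47.0 CPM (rank 239 to 247), and the Mir218-1 share at 29.6% to 34.8%. The values at the miR-218 loci rest on 58 to 208 counts. Counts of the list loci at 100 CPM were the same in each library.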
